A study of Homo sapiens with 38 samples.

Results

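The Hi-C map of RWPE-1 cells was described along chromosome 1, from 28 Mb to the end of the long arm, in bins of 40 kb on the genome build GRCh37. Bins were chosen by position and coverage alone: of the 5532 bins of this stretch, 4975 had at least 1 contact, out of 71543 such bins in the whole table. The short arm held 2330 of them and the long arm 2645. Of the 557 bins without coverage, 525 formed the centromeric gap between 121.52 and 142.52 Mb. A further 108 bins with under 0.2 of the median count were left out, so that 4867 bins were used for balanced contacts.

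RWPE-1 is an immortalized, non-tumorigenic epithelial line from normal human prostate. In situ Hi-C was made in 2 replicates from RWPE-1 cells, with chromatin digested by the restriction enzyme MboI. The series also holds 36 RNA-seq libraries, of which 5 control libraries of RWPE-1, from the experiment that deleted a risk region on chromosome 7, and 3 libraries from RWPE-1 cells transfected with an eGFP plasmid and sorted after 48 hours were used here. Both Hi-C replicates were summed by the authors in 1 table, so no value below has a spread between replicates and no difference between Hi-C values was tested. Intervals are 95% intervals for counting error only, and read pairs were not shown to be independent molecules.

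The RNA of the 5 controls carried the markers of basal prostate epithelium. The basal keratins KRT5 and KRT14 stood at 9094 ± 1858 and 5143 ± 1345 TPM (TPM is a transcript level corrected for length and scaled to the same total in each library; mean ± SD, n = 5), and TP63, a transcription factor of basal cells, at 82.0 ± 34.4 TPM. Of the luminal markers, the secreted protease KLK3 was listed at 0 in all 5 libraries, while the luminal keratins KRT8 and KRT18 stood at 348 ± 126 and 238 ± 43.8 TPM. The immune markers PTPRC and CD3E were listed at 0. Of the fibroblast markers, DCN was listed at 0 and the collagen gene COL1A1 stood at 6.09 ± 2.13 TPM.

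Hi-C joins pieces of DNA that lie close together in the nucleus and counts the read pairs that link them. Contacts fall with distance along the chromosome, and chromatin sorts into a pair of compartments, one rich in active genes and one poor in them, whose stretches contact their own kind over long distances. At a finer scale, domains contact themselves more than their neighbours and end at borders. Where distant pieces of DNA have been joined by a rearrangement, a Hi-C map shows a focus of contacts at the join, which fades along the joined pieces and stops at the breakpoint.

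The stretch held 29674810 read pairs with both ends inside it, 33.4% of the 88979102 in the table. The lines of that table end within chromosome 2, so this is not the share of a whole-genome map. Of the read pairs inside the stretch, 24.7% lay within 1 bin, 41.8% within the short arm, 55.2% within the long arm and 2.92% crossed the centromere. Pairs at least 10 Mb apart made up 13.1%. A covered bin had a median of 10076 read pairs within the stretch and 2086 with other chromosomes. The long arm had the higher share of bin ends that met another chromosome, 19.9% against 16.1% in the short arm.

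The decline of contacts with distance was much alike in both arms at short range and less so at long range. Between 0.4 and 4 Mb the balanced contacts fell with a log-log slope of -1.37 in the short arm and -1.40 in the long arm. Between 4 and 40 Mb the slopes were -0.88 and -0.80. Bins 0.2 Mb apart shared 154 raw read pairs per bin pair in the short arm (95% interval 153.8 to 154.3) and 188 in the long arm (187.3 to 187.9). Bins 50 Mb apart shared 0.349 (0.346 to 0.352) and 0.435 (0.432 to 0.439). After balancing, the short and long arms were closer, with 179 and 187 at 0.2 Mb and 0.412 and 0.451 at 50 Mb. In raw counts at the same 50 Mb, pairs on opposite sides of the centromere shared 0.222 (0.218 to 0.225), below both arms. In the short arm the count did not fall further between 50 and 80 Mb, where it was 0.362 (0.357 to 0.366), while the long arm went down to 0.245 (0.242 to 0.248). Short-arm pairs 80 Mb apart join only the ends of its 93.52 Mb, and the part of compartments in their count was not tested. At 100 Mb the raw count of the long arm, 0.129, lay below that of the pairs across the centromere, 0.143, but after balancing the order was reversed, with 0.215 in the long arm and 0.164 across.

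**Figure D1:**
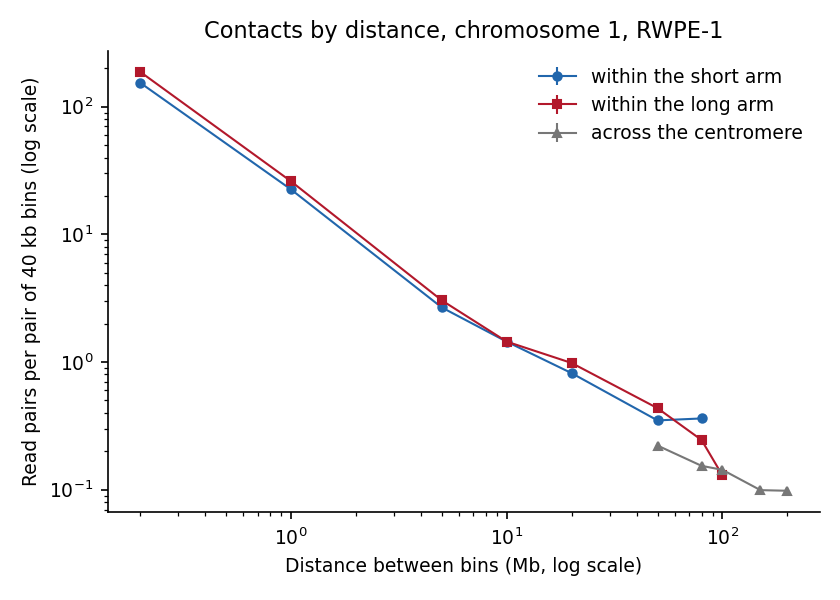
Raw read pairs per pair of 40 kb bins (y axis, log scale) against the distance between the bins (x axis, Mb, log scale) for pairs within the short arm, within the long arm and across the centromere. Points are means over all kept bin pairs at that distance within 5%; the 95% counting intervals are smaller than most symbols, and the pairs across the centromere start below both arms at 50 Mb.

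Each arm divided into alternating stretches of 2 contact classes. In 200 kb bins, the first principal component of the correlation matrix of observed over distance-expected contacts took 93.5% of the variance in the short arm and 87.0% in the long arm. The side of the component with the higher ratio of contacts with chromosome 19 to contacts with chromosome 18 was called class 1 in each arm. Gene-rich chromosome 19 and gene-poor chromosome 18 are textbook opposites in nuclear position, but no gene was placed in a bin here, so the classes carry no A or B name. The ratio was 2.31 in class 1 against 1.14 in class 2 of the short arm, and 2.18 against 1.08 in the long arm.

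Of the 988 bins of 200 kb, 462 fell in class 1, or 46.8% (exact binomial interval 43.6% to 49.9%). The share was 47.0% in the short arm and 46.6% in the long arm. The bins formed 85 intervals, 38 in the short arm and 47 in the long arm, with a median length of 1.0 Mb for class 1 and 1.2 Mb for class 2. Of the 85 intervals, 16 were no longer than a single 200 kb bin, 5 of them in the short arm and 11 in the long arm. Chromosome 2, treated in the same way, gave 83 intervals with medians of 0.8 and 2.5 Mb and 46.8% of its classed bins in class 1.

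Class 1 was led by a 12.2 Mb interval of the short arm from 35.2 to 47.4 Mb. The next in length were 225.52 to 236.32 Mb (10.8 Mb) and 199.72 to 210.12 Mb (10.4 Mb) in the long arm, followed by 149.64 to 157.12 Mb (7.48 Mb), 111.4 to 118.8 Mb (7.4 Mb) and 28 to 34 Mb (6.0 Mb). The interval from 149.64 to 157.12 Mb had the highest mean component of the 10 longest, 1.45, and that from 159.92 to 162.52 Mb the lowest, 0.75. Class 2 was led by 95.4 to 109.2 Mb (13.8 Mb), 185.12 to 197.52 Mb (12.4 Mb) and 68.4 to 78.0 Mb (9.6 Mb). Long intervals of a single class thus lay in both arms for both classes.

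**Figure D2:**
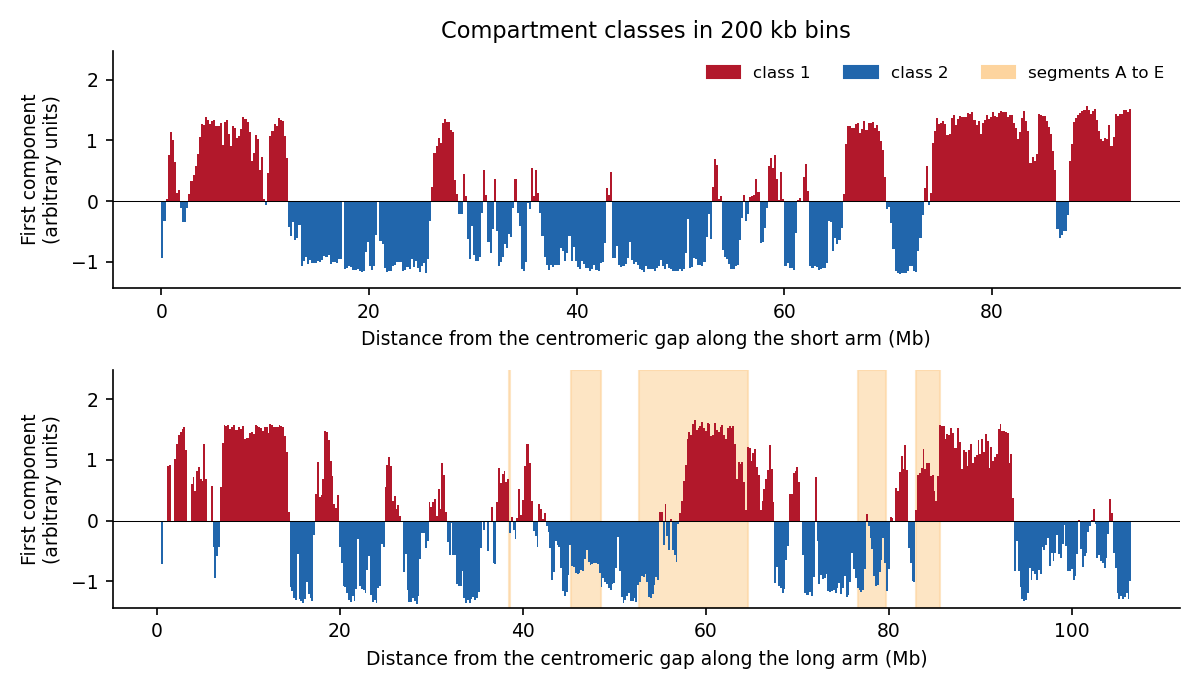
First principal component (y axis, arbitrary units) of each 200 kb bin by its distance in Mb from the centromeric gap, for the short arm (top) and the long arm (bottom). Red bars are class 1, blue bars class 2, and shading marks the segments A to E described below. Long runs of 1 class sit beside runs of single bins, and segment B lies wholly in class 2 while segment E lies nearly wholly in class 1.

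The component was computed inside each arm, so contacts across the centromere were not used by it. Bins of class 1 on opposite sides of the centromere, 1088 in the short arm and 1172 in the long arm, met at 1.64 times the level expected from distance. Unlike classes met at 0.706 times that level and bins of class 2 at 1.02 times. Within the arms, where contacts did set the classes, the order of the like classes was the other way round: class 2 with class 2 stood at 1.41 and class 1 with class 1 at 1.21 in the short arm, and at 1.32 and 1.22 in the long arm.

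Contacts with chromosome 2, which the component did not use either, were sorted in the same way. Class 1 bins took 338943 read pairs with class 1 of chromosome 2, or 1.16 times the number expected from the totals, and 157471 with class 2, or 0.766 times. Class 2 bins took 206529 with class 2 of chromosome 2, or 1.303 times, and 176532 with class 1, or 0.786 times. The odds ratio of like over unlike was 2.52 (95% interval 2.496 to 2.540), with 2.51 in the short arm and 2.52 in the long arm. Both chromosomes' classes had their sign set by contacts with chromosomes 18 and 19, not by contacts with each other.

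The end of the short arm, before 28 Mb, was also left out of the component. A class 1 bin of the short arm shared 378 read pairs with it (377.2 to 379.5) and a class 2 bin 75.4 (74.9 to 75.9). From the long arm a class 1 bin shared 127 and a class 2 bin 31.5. The class 1 interval from 28 to 34 Mb borders that end, and the part of distance in the first pair of values was not tested. Contacts with all other chromosomes also differed in amount between the classes, with 2379 per class 1 bin against 1475 per class 2 bin in the short arm, or 1.61 times. In the long arm the ratio was 1.35, and 1.296 outside the segments A to E described below, which were high in these contacts. Counts within the stretch went the same way, 1.33 times higher in class 1 of the short arm and 1.29 times in the long arm, and the part of overall coverage in these differences was not tested.

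Each other autosome had its own preference for the classes. The share of a class 1 bin's contacts with other chromosomes that went to chromosome 22 was 1.88 times that of a class 2 bin (1.86 to 1.91). Chromosome 19 followed with 1.76, chromosome 17 with 1.68, chromosome 20 with 1.32 and chromosome 15 with 1.31. At the other end were chromosome 18 with 0.870, chromosome 4 with 0.874, chromosome 12 with 0.832 and chromosome 8 with 0.601. Chromosome 8 differed between the arms: its ratio was 0.582 in the long arm and 0.879 in the short arm. Over both arms outside the segments A to E it was 0.751. Chromosome 12 stood at 0.958 in the short arm, 0.845 in the long arm and 0.723 over both arms outside the segments, where it was the lowest. Chromosomes 18 and 19 set the sign, so their values are descriptions of the rule.

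The preference was set beside expression in the 5 control libraries. Chromosome 19 had 16.4 ± 0.142 genes at 1 TPM or more per covered Mb (mean ± SD, n = 5), chromosome 17 had 9.99 ± 0.137, chromosome 22 had 8.79 ± 0.165 and chromosome 16 had 7.78 ± 0.111. Chromosome 13 had 2.28 ± 0.0439, chromosome 4 had 2.42 ± 0.0280 and chromosome 18 had 2.54 ± 0.0396. Chromosome 1 itself had 5.67 ± 0.0447, or 1285 ± 10.1 genes, and its class preference is not defined. Across the 21 other autosomes, log2 of the preference and expressed genes per Mb had Pearson's r = 0.79 and Spearman's rho = 0.80. Without chromosomes 18 and 19 the values over 19 autosomes were 0.81 and 0.77. With classes of 1 arm alone, r over the 21 autosomes was 0.84 for the short arm and 0.77 for the long arm. These are descriptions over chromosomes that share 1 Hi-C table and the same 5 libraries.

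**Figure D3:**
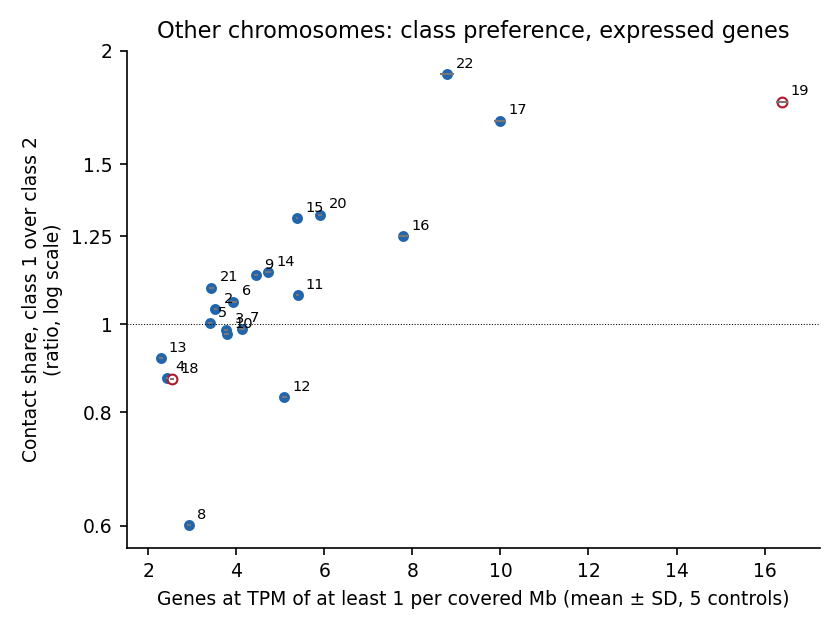
Ratio of contact shares, class 1 over class 2 of chromosome 1 (y axis, log scale), against genes at TPM of at least 1 per covered Mb (x axis, mean with SD over 5 control libraries) for the 21 other autosomes, each marked by its number; open circles are chromosomes 18 and 19, which set the sign of the classes. Chromosomes 22, 19 and 17 are highest on the y axis, and chromosome 8, with 0.601, is lowest.

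Domain borders were local minima of the contacts that pass over a bin, taken between the 480 kb on each side and given as insulation, a log2 value relative to the arm's mean. The 4789 scored bins held 286 borders, 137 in the short arm and 149 in the long arm, which is 14.96 and 14.90 per 10 Mb. Neighbouring borders lay a median of 0.6 Mb apart, with 0.24 Mb and 1.12 Mb as the 10th and 90th percentiles. Chromosome 2 had 307 borders, or 13.2 per 10 Mb. Class 1 held 163 borders, or 18.4 per 10 Mb, and class 2 held 123, or 11.9 per 10 Mb. The borders of class 2 were deeper, with a median depth of 0.76 against 0.66 on the log2 scale.

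Class switches tended to lie at borders. Of the 80 switches, 67 had a border within 0.2 Mb, or 83.8%, where 58.2% of all scored bins lay that close to a border. The deepest border was the bin at 228.76 Mb with a depth of 2.48 and an insulation of -2.01, inside the class 1 interval from 225.52 to 236.32 Mb and 3.24 Mb from a switch. It lay 0.72 Mb past the peak bin of a junction described below. The count of this bin within the stretch was 0.605 of the median, and the part of coverage in its depth was not tested. The next in depth were 60.32 Mb (1.95), 174.96 Mb (1.77), 55.52 Mb (1.76), 240.16 Mb (1.70) and 186.28 Mb (1.65). The tenth, at 225.56 Mb with a depth of 1.59, lay 0.04 Mb from a class switch and 0.08 Mb from a junction.

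Long-range contacts were first read in 1 Mb by 1 Mb blocks at least 10 Mb apart. Of 18158 blocks, 295 had at least 3 times the expected contacts and at least 50 read pairs, a background of 1.62% over all blocks. Of these, 215 crossed the centromere (of 9947 tested), 66 lay within the long arm (of 4641) and 14 within the short arm (of 3570). Most were moderate, with 224 of the 295 below 4 times the expected contacts. Blocks of class 1 with class 1 were called in 170 of 3411 cases (4.98%), unlike classes in 48 of 9194 (0.522%) and class 2 with class 2 in 77 of 5553 (1.39%). These rates pool blocks across the centromere with blocks within the arms. Within the arms the same contacts set the classes, so higher rates of like classes are partly built in there. Just inside the threshold of 3 stood a block at 51 and 149 Mb, at 3.0002 with 143 read pairs, and just outside it the block at 195 and 207 Mb, at 2.9998 with 4770 read pairs.

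Touching blocks were joined into 82 sites. The highest value, 35.7 times expected with 433 read pairs, was between 121 to 122 Mb and 206 to 207 Mb, and the second, 20.4 times with 2788 read pairs, was between 144 to 145 Mb and the same 206 to 207 Mb. Both have an end within 8 Mb of the centromeric gap, as did the top blocks of 50 of the 82 sites. The next were farther from it: 192 to 193 Mb with 221 to 222 Mb at 8.45 times expected (6233 read pairs), and 190 to 191 Mb with 225 to 226 Mb at 8.33 times (3689 read pairs). Blocks between class 1 stretches on opposite sides of the centromere were of both focal and diffuse form. The block at 85 to 86 Mb and 145 to 146 Mb, near the gap, reached 8.02 times expected with 920 read pairs, of which its highest pair of 40 kb bins held 101. The block at 28 to 29 Mb and 155 to 156 Mb reached 5.97 times expected with 414 read pairs, and its highest pair of 40 kb bins held 4.

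Single pairs of 40 kb bins were then searched for foci. At least 5 Mb apart, 552 of 11773567 bin pairs held 30 or more read pairs, a background of 0.00469%, and they formed 19 sites. This rule was chosen after the map had been seen. Of the 19 sites, 12 had an end within 8 Mb of the centromeric gap, and 9 of these 12 had an end bin with under 0.5 of the median count. The bin at 144.00 Mb took part in 3 of the 12, among them the highest of all, with the bin at 206.48 Mb, at 517 read pairs (473 to 564). The second, between 120.60 and 145.04 Mb, held 409.

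The other 7 sites lay farther from the gap, and none of their end bins had a low count. Of these, 6 covered many bin pairs and all 6 lay within the long arm between 181 and 229 Mb. Their peaks paired 187.80 with 228.04 Mb at 350 read pairs (314 to 389), 181.08 with 191.40 Mb at 347 (311 to 386), and 181.12 with 222.20 Mb at 304 (271 to 340). They further paired 195.20 with 207.08 Mb at 222 (194 to 253), 191.00 with 225.48 Mb at 195 (169 to 224), and 192.40 with 221.64 Mb at 45 (32.8 to 60.2). Against the expected contacts at 40.2 Mb, the pair of 187.80 and 228.04 Mb stood at 324 times. The seventh site was 1 pair of bins, 91.84 and 156.16 Mb, with 139 read pairs (117 to 164), where the 4 corners of 400 kb around it held 46 together. The bin at 91.84 Mb sent 66.3% of its read pairs to other chromosomes, 9.25 times the median count.

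The same stretch of the long arm held the steps in contacts with other chromosomes. Contacts with other chromosomes changed at least 2-fold between the 800 kb on each side at 8 places, all between 187 and 229 Mb; 2.68% of all 4807 boundaries scored passed that fold, since neighbouring boundaries share bins. The steps alternated up and down and enclosed 4 segments, and another was set by the bins around the junction ends at 181 Mb that had at least 2 times the median count. They are named in order along the arm. Segment A was chr1:181040001-181160000 and segment B chr1:187760001-191040000. Segment C was chr1:195200001-207120000. Segment D was chr1:219200001-222240000 and segment E chr1:225480001-228080000.

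Segment A, 0.12 Mb long, had a median of 7260 read pairs per bin with other chromosomes against 2012 in the 1 Mb on each side, or 3.61 times, over only 3 bins. Segment B, 3.28 Mb, had 3650 against 1368, or 2.67 times. Segment C, 11.92 Mb, had 5200 against 2102, or 2.47 times. Segment D, 3.04 Mb, had 6115 against 2017, or 3.03 times, and segment E, 2.6 Mb, had 6772 against 2471, or 2.74 times. In segment B the lowest bin, 2555, lay above the median beside it, and the same held in D and E. In C the lowest bin was 1671, below its flanks. The bins of A were chosen for at least 2 times the median count, so its ratio and lowest bin follow from that choice. The ratios of B to E also come from the counts that set their edges.

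Contacts within the stretch rose in the same segments by other amounts. Segment C had 2.32 times the count of its flanks, segment A 2.10, segment E 1.90, segment D 1.77 and segment B only 1.28. A raw count moves with copy number, mappability and restriction sites together, which cannot be told apart here. The counts with other chromosomes that set the segments also hold the shares of single partners given below. In windows of 1 Mb, 16 of 197 (8.12%) had at least 2 times the median count with other chromosomes. All 16 lay mostly inside the segments, none was in the short arm, and the highest window with no bin in a segment reached 1.60 times the median. The segments were set from the same counts, so this overlap largely follows from how they were set. The short arm ranged from 0.460 to 1.50 times.

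The segments also differed in their partners. Chromosome 8 took 42.5% of the contacts of segment A with other chromosomes, 44.0% of B, 41.2% of D, 26.4% of E and 10.4% of C, against 4.53% in the short arm and 4.15% between the gap and segment A. Between the segments its share was 4.51% from A to B, 18.2% from B to C and 10.7% from C to D. Outside the segments, the share of chromosome 9 fell along the long arm from 13.01% before segment A to 4.58% between C and D, while that of chromosome 12 went from 4.55% to 19.2%, and to 22.9% after segment E. In segment C both had high shares, 11.9% for chromosome 9 and 13.7% for chromosome 12. Chromosome 2, for comparison, took 8.58% before segment A and 6.97% after segment E.

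**Figure D4:**
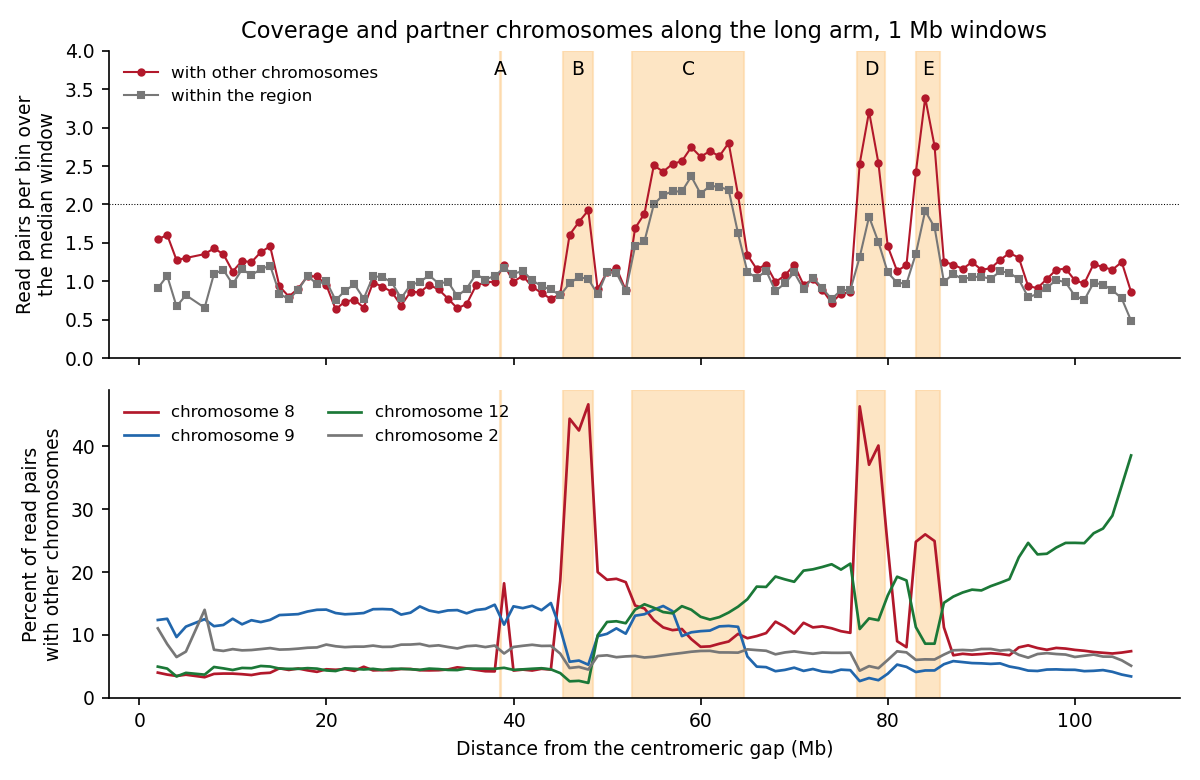
Top, read pairs per bin in 1 Mb windows over the median window (y axis), with other chromosomes (red) and within the described stretch of chromosome 1 (grey), by distance from the centromeric gap in Mb; the dotted line is 2 times the median and shading marks segments A to E. Bottom, percent of the read pairs with other chromosomes that went to chromosomes 8, 9, 12 and 2. The chromosome 8 share stands above 40% in B. Between B and C it is 18.2%, lower than in B but above the 10.4% of segment C. The share of chromosome 9 is the higher before segment B and that of chromosome 12 after segment C.

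Of the 6 broad foci, 4 had both peak bins at ends of segments. The pair of 187.80 and 228.04 Mb linked the start of B with the end of E, and the pair of 191.00 and 225.48 Mb the end of B with the start of E. The pair of 181.12 and 222.20 Mb linked the end of A with the end of D, and the pair of 181.08 and 191.40 Mb the start of A with a bin 0.36 Mb past the end of B, so that only 1 of its ends lay at a segment edge. The pair of 192.40 and 221.64 Mb had its peak at no edge, with 1 end in the stretch between B and C and the other inside D. Its focus as a whole spanned 191.40 to 193.20 Mb and 220.76 to 222.24 Mb. It thus reached the bins at 191.40 and 222.20 Mb, both of which were paired with segment A. The pair of 195.20 and 207.08 Mb linked the start and the end of C itself. Junctions and segments are not independent in the case of A, whose bins were found through the junctions; the edges of B to E were set from contacts with other chromosomes alone.

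Around the peaks at the ends of B, C and E, the contacts on 1 side were many times those on the other. Seen from the bin at 187.80 Mb, the bins 0.12 to 2 Mb before 228.04 Mb, which lie in segment E, held 1181 read pairs and those after it 9. From the bin at 228.04 Mb, the bins after 187.80 Mb, in segment B, held 160 and those before it 10. From the bin at 191.00 Mb, the bins after 225.48 Mb held 356 and those before it 27. From the bin at 225.48 Mb, the bins before 191.00 Mb held 638 and those after it 45. In all 4 views the side with more contacts was the inside of a segment.

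Segment C met itself end to end. From the bin at 195.20 Mb the bins before 207.08 Mb held 619 read pairs and those after it 44, and from the bin at 207.08 Mb those after 195.20 Mb held 2114 and those before it 60. From the bin at 181.12 Mb, at the end of A, the bins before 222.20 Mb, in segment D, held 2772 and those after it 24. From the bin at 181.08 Mb, at the start of A, the bins after 191.40 Mb held 2007 and those before it 89. Seen from the far ends of these last pairs, both sides of segment A were low, with 14 and 11 read pairs around 181.12 Mb and 64 and 51 around 181.08 Mb, and only the bins within A itself stood out.

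**Figure D5:**
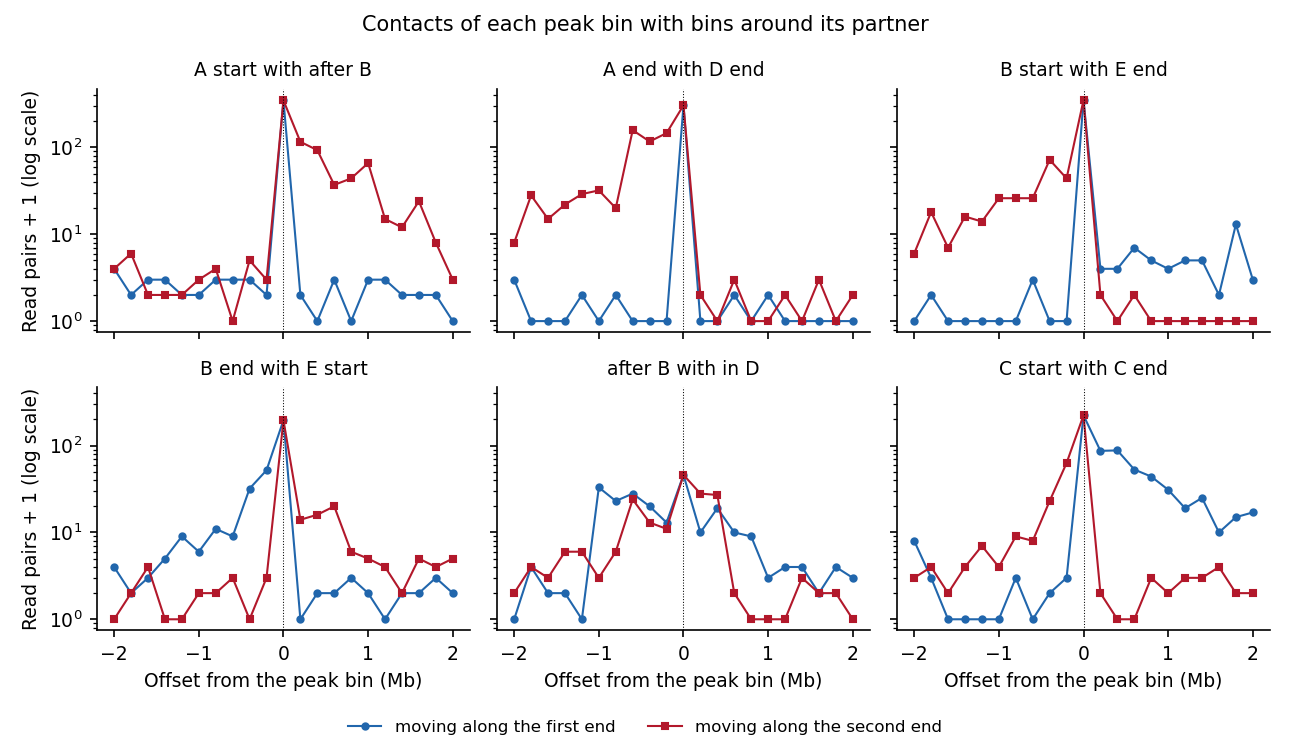
Read pairs plus 1 (y axis, log scale) between a peak bin and the bins at offsets from -2 to 2 Mb around its partner (x axis), at steps of 0.2 Mb, for the 6 broad sites; blue circles move along the first end and red squares along the second. Counts are higher on 1 side of the peak than on the other along B, C, D, E and the stretch after B, but drop on both sides along the short segment A; the site after B with segment D has no single sharp peak.

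Contacts between whole segments were counted next, with the foci at their ends included. Segments B and E, 34.44 Mb apart, shared 21724 read pairs, or 4.08 per bin pair (4.02 to 4.13), against 0.279 per bin pair between their flanks, which is 14.6 times. After balancing the value was 6.03 times expected, and 0.750 for the flanks. Segments A and D, 38.04 Mb apart, shared 6053 read pairs, or 26.5 per bin pair (25.9 to 27.2), against 0.267 between their flanks, and stood at 22.8 times expected. The stretch between B and C, which showed no high coverage, shared 32747 read pairs with segment D, or 4.14 per bin pair, at 3.59 times expected. It shared 5508 with segment A, at 6.67 times expected. Segment A is 3 bins set around the junction ends, so its values count those foci again and do not show contacts beyond them.

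Other pairs of segments had smaller excesses over their flanks or none. The ratio of read pairs per bin pair to the flanks was 5.28 for A and E, 4.48 for A and C, 2.54 for C and D, 2.44 for B and D, 2.00 for C and E, 1.27 for A and B and 0.596 for B and C. Segments D and E, only 3.24 Mb apart, shared 2.45 read pairs per bin pair against 2.94 between their flanks, and stood at 0.578 times expected. The facing flanks of neighbouring segments lie nearer to each other than the segments do, so ratios to the flanks are not matched for distance. After balancing, B and C stood at 0.429 times expected, A and B at 0.579, C and E at 0.832, A and C at 0.994 and C and D at 1.08. The stretch between B and C met segment E at 0.387 times expected and D, which is nearer, at 3.59. Segments B and D stood at 1.46 times expected and A and E at 2.25. Balancing divides by coverage, which is itself high in the segments, so a value below 1 between them has 2 readings that cannot be told apart here.

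The edges of the segments were looked up among the domain borders. Of the 10 edges, 7 had a border within 0.12 Mb, where 40.5% of all scored bins lay that close to one. The start of E was the most marked, with an insulation of -1.56 that 0.230% of single scored bins matched or passed. The value at each edge is the lowest near it, so its rank among single bins is low partly by that choice. The end of C had -0.73, the start and end of A shared 1 border at -0.59, and the start of C had -0.49. No border was called at either edge of B or at the end of D, where the lowest values were -0.14, -0.43 and -0.16.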

How the data were processed

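The deposited Hi-C table gives raw counts of read pairs between 40 kb bins, summed over both replicates by the authors; the submitters' processing notes name HiC-Pro 2.8.0 and the build GRCh37. Its lines end within chromosome 2, and 1 incomplete line was left out. Expression is TPM as deposited by the authors; the submitters' processing notes list STAR 2.5.2b and RSEM 1.3.0 among the RNA-seq tools, without saying which made this table. TPM rows were placed on chromosomes by symbol through a RefSeq table (91.6% of 14105 genes with a mean of at least 1 TPM).

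Contacts were balanced iteratively, with pairs under 2 bins apart left out, and divided by the mean at the same distance, per arm or across the centromere. Python 3.11.15, numpy 2.4.6, scipy 1.17.1 and pandas 2.3.3 were used, and the steps were tested on simulated data. Borders needed a depth of 0.3 over 12 bins. Named intervals, borders and sites are those of the 10 longest, deepest or highest; foci, segments and their edges were chosen after seeing the data. The members and lists were chosen with earlier results of these data known. Expression by class within chromosome 1 was not run, since no GRCh37 gene positions were used here.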

Additional observations from a re-analysis of the deposited data

Results flagged for a closer look

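Among 36 sets of values over the 5 control libraries, 6 had 1 library far from the other 4 for the group's range; chance alone flags about 1 in 20. KLK2 reached 0.12 TPM, CHGA 0.06 TPM and VWF 0.16 TPM in 1 library each and were listed at 0 in the other libraries. With the other 4 libraries at 0, any value above 0 is flagged, so the rate of 1 in 20 does not apply to these genes. Genes at 1 TPM or more on chromosome 5 numbered 617 in 1 library against 596 to 601 in the others, and on chromosome 16 they numbered 630 against 607 to 613. On chromosome 20 the lowest library had 348 against 353 to 355.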

How the results depend on the processing

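Of 67 alternative values over 14 results, 12 moved. The class share of bins stayed within its interval under all 7 alternatives, with 95.3% to 99.6% of shared bins in the same class, while 40 kb bins gave 251 intervals in place of 85. The odds ratio with chromosome 2 was 2.42 without the segments, and like over unlike across the centromere stayed above 1 throughout. Called blocks numbered 1190 at a fold of 2, 23 at a fold of 5, 1054 with 400 kb blocks, 156 without blocks within 8 Mb of the gap and 196 without blocks over a segment, the last pair chosen after seeing the data. Windows of 2 Mb gave 7 with at least 2 times the median, over fewer windows. With 20 read pairs as the minimum, chosen after seeing the data, foci numbered 35, of which 13 lay over 8 Mb from the gap. On raw counts the slopes from 0.4 to 4 Mb were -1.39 (short arm) and -1.42 (long arm). Border counts stayed within 1.5 times under all 7 alternatives. Leaving out each control library gave r between 0.784 and 0.787 for preference and expressed genes, and the 3 eGFP libraries gave 0.785. The planned comparison of expression by class was not run. No paired analysis was possible because both Hi-C replicates are summed in 1 table; for the same reason none could be left out. A single combined map has no replicate error, and bins near the gap have low counts.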
